A study of Homo sapiens with 12 samples.

Results

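The p53 target genes described here are 33 genes that were listed by name as regulators and direct targets of the transcription factor p53, with the CDK inhibitors and the genes of apoptosis left out. Of these, 32 were matched to an identifier in the count tables and all 32 were tested, among 21518 genes tested in all. The antisense RNA TNFRSF10D-AS1 matched no identifier and has no value.

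Bulk mRNA was sequenced from WI-38 cells, an established line of human diploid lung fibroblasts, in 4 groups of 3 libraries. Proliferating cells received the non-targeting siRNA pool siCtrl and were kept in the vehicle DMSO for 8 days. Senescent cells were kept for 8 days in 50 µM etoposide, an inhibitor of topoisomerase II that breaks DNA, and had been transfected with siCtrl, with siNTRK2, which targets the mRNA of the receptor TrkB, or with siBDNF, which targets the mRNA of its ligand, brain-derived neurotrophic factor. Each siRNA was used at 25 nM. Every target was silenced with 1 commercial pool of siRNAs, all cells came from 1 line, and proliferating cells were compared with siCtrl alone. The study's general statement on replication is that its experiments were repeated independently, but the labels do not say whether the 3 libraries of a group came from separate cultures. If they did not, the p-values measure only the spread between these libraries, which may be technical.

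In background terms, p53 is held at a low level by the ubiquitin ligase MDM2 and is released when the kinases of the DNA damage response modify both proteins. It then binds its sites in DNA and activates genes that halt the cell cycle, repair DNA, hold down oxidative stress, change metabolism and autophagy, and brake p53 itself. Damage by etoposide feeds into this route, and lasting p53 activity is a known feature of fibroblasts made senescent by DNA damage.

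Each library held between 31567912 and 72328151 counts. A count of 3, taken as the floor of detection, corresponded to between 0.0427 and 0.0916 normalised CPM (counts scaled to the TMM-adjusted library total), which covers counting error only. NTRK2 was counted 0 times in all 3 siNTRK2 libraries, against 7, 15 and 10 times with siCtrl in senescent cells, where it is therefore barely detected. BDNF lay between 44.3 and 48.9 CPM with siBDNF and between 157 and 169 CPM with siCtrl in senescent cells. It lay between 153 and 163 CPM in proliferating cells and between 203 and 206 CPM with siNTRK2. NTRK2 lay between 0.305 and 0.422 CPM with siBDNF, against 0.125 to 0.258 CPM with siCtrl in senescent cells. The fibroblast markers COL1A1, COL1A2 and VIM were abundant in every group, with group means of at least 4110 CPM.

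The p53 site searched for was 2 copies of a 10-letter unit, the p53 half-site consensus, set back to back. Sites with bases between the copies were not searched for. The genome (GRCh37) was scanned within 2500 bases of each gene's transcript start for this 20-letter site, with the C and G at the core of each copy required and at most 2 of the other letters off the consensus. Such a match was present at 12 of the 32 p53 target genes (37.5%), and at 757 of 20084 tested genes that have an annotated start (3.77%). Since the list was made of regulators and direct targets of p53, its higher share is not an independent result. The consensus reads the same on both strands, so that the scan covered both. Matches at 9 of the 12 genes are shown as examples of how closely the letters follow the consensus, among them CCNG1 and PLK2, which moved against most of the list. Each is written 5′ to 3′ on the strand of its gene, and the capitals mark the 4 core letters of each copy.
MDM2: ggtCAAGttcagaCACGttc
CCNG1: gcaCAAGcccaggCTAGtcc
DDB2: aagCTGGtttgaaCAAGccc
GADD45A: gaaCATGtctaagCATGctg
ACER2: gaaCCTGccgggaCAAGtct
SPATA18: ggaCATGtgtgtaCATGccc
BTG2: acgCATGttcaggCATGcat
PLK2: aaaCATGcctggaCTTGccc
ZMAT3: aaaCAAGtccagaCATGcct

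The MDM2 match lies in an intron on the plus strand (chr12:69202703-69202722), with its centre 755 bases after the transcript start. That of CCNG1 is also in an intron (plus strand, chr5:162864932-162864951), and a further match in this gene lies 2360 bases after the start. The DDB2 match lies 4 bases after the start, in an exon outside the coding sequence (plus strand, chr11:47236520-47236539). Introns also hold the matches of GADD45A (plus strand, chr1:68152458-68152477), ACER2 (plus strand, chr9:19409520-19409539), SPATA18 (plus strand, chr4:52918123-52918142) and ZMAT3 (minus strand, chr3:178787976-178787995). Those of BTG2 (plus strand, chr1:203272770-203272789) and PLK2 (minus strand, chr5:57758101-57758120) lie upstream of the gene. The sites at PLK2 and ZMAT3 had 0 letters off the consensus. AEN, EDA2R and RRM2B made up the rest of the 12. A match describes the letters only, and binding of p53 was not measured in these data.

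**Figure D1:**
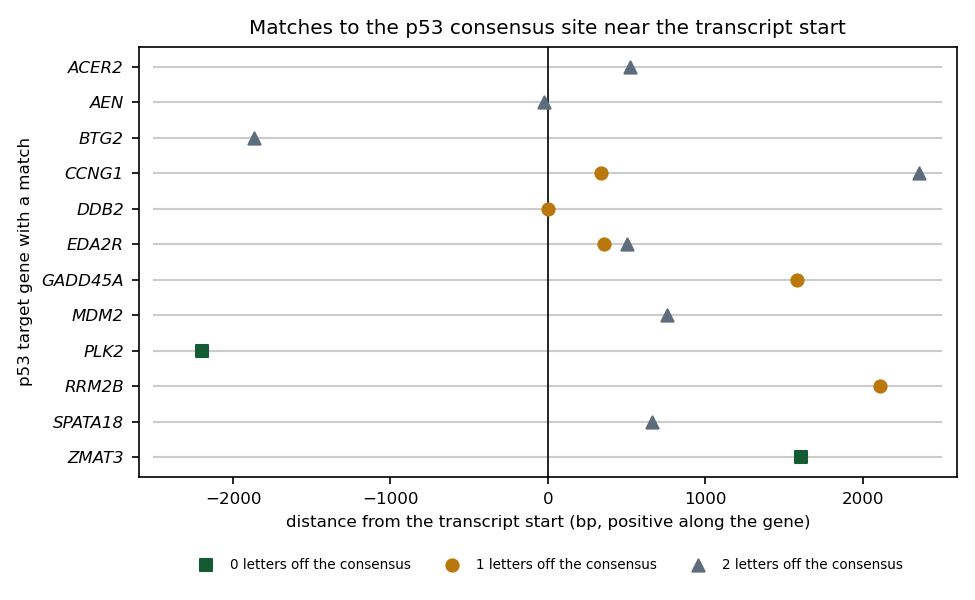
Position of each match to the p53 consensus site (x axis, distance in bases of its centre from the transcript start, positive along the gene) at the 12 p53 target genes that hold one (y axis); the marker shape and colour give the letters off the consensus. CCNG1 and EDA2R hold 2 matches each, the matches of PLK2 and ZMAT3 have 0 letters off, and 3 matches (AEN, BTG2 and PLK2) lie before the start.

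Induction of senescence was examined first, by comparing senescent with proliferating cells that both received siCtrl. Most p53 target genes were higher in senescent cells, by modest amounts. At an adjusted p under 0.05 (edgeR's quasi-likelihood test), 25 of 32 were higher, 4 were lower and 3 were not called, while 29.8% of all tested genes were called higher and 28.3% lower. The median log2 fold change of the 32 genes was 0.39, against 0.02 over all tested genes. At the threshold of the study, which also asks for an absolute log2 fold change above 1, ACER2, RRM2B, PLK3 and SPATA18 were higher, against 11.6% of all genes, and no log2 fold change lay below -1, against 5.16% of all genes called lower at this threshold. In 29 of the 32 genes the 3 senescent libraries did not overlap the 3 proliferating libraries, which was so for 61.3% of all genes. Here and in the other comparisons, the shares over all tested genes were not limited to genes with counts like those of the list. The part of read depth in the difference between these shares and the list was not tested. In bulk RNA, fewer cells of a type and less RNA per cell cannot be told apart.

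**Figure D2:**
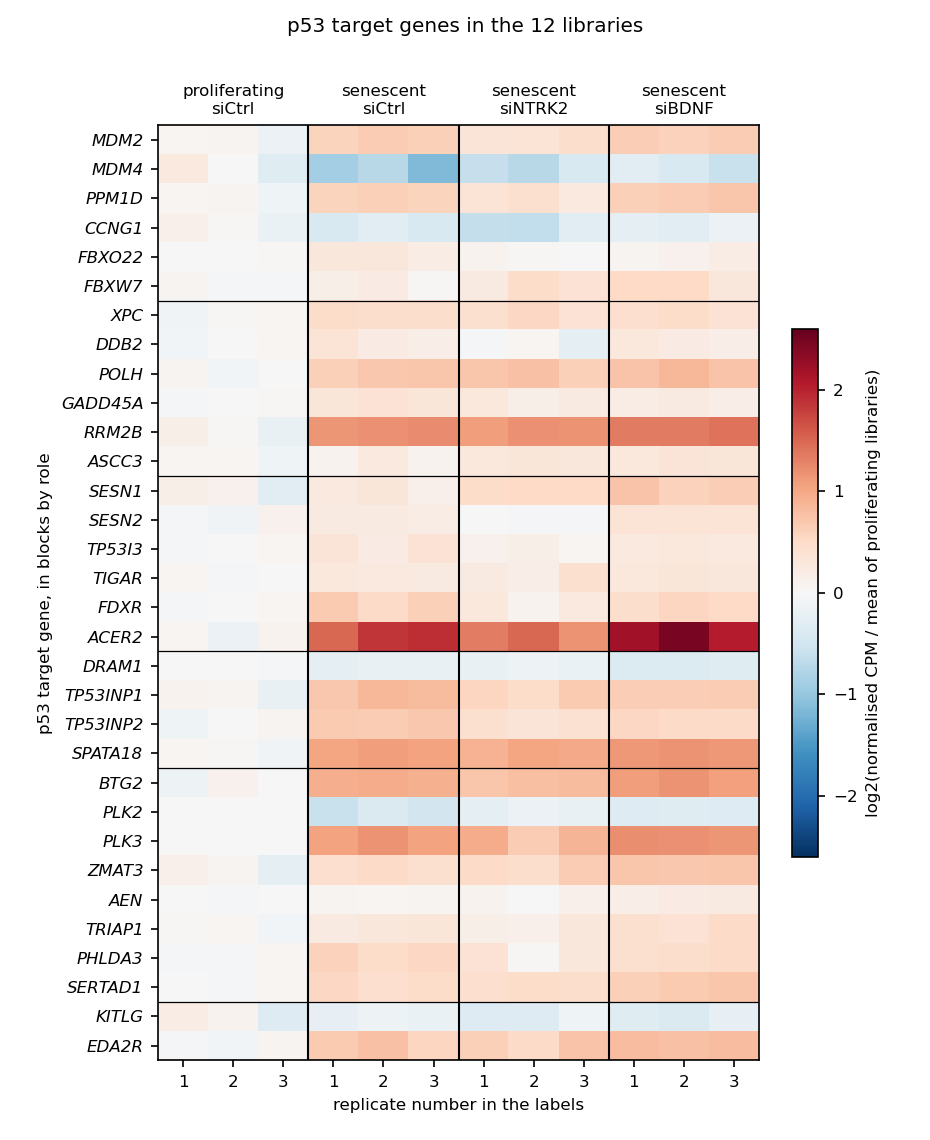
Heat map of the 32 p53 target genes (rows, in blocks by role) in the 12 libraries (columns, 3 per group), coloured by the log2 of normalised CPM over the mean of the 3 proliferating libraries. Most rows turn red in the senescent groups, ACER2 most of all, while MDM4, CCNG1, DRAM1, PLK2 and KITLG are blue in all 9 senescent libraries (KITLG was not called, and its direction turned with the offset for length and GC content).

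Among the regulators of p53, 3 were higher, 2 were lower and 1 was not called. MDM2, the ubiquitin ligase that marks p53 for degradation and carries the intron match shown above, had 129, 131 and 112 CPM in proliferating cells and 185, 195 and 189 CPM in senescent cells. MDM4, a relative of MDM2 that binds p53 and blocks its activity, had 7.12, 5.94 and 4.76 CPM in proliferating cells and 3.24, 3.62 and 2.67 CPM in senescent cells. The pair thus moved apart, and for neither gene did the groups overlap. MDM2 rose by 0.61 ± 0.05 (log2 fold change ± SE, adjusted p = 3.1e-10, edgeR's quasi-likelihood test) and MDM4 fell by 0.91 ± 0.15 (adjusted p = 8.11e-06). MDM4 was counted between 154 and 417 times per library, so that its levels are the less precise of the pair. A long noncoding RNA on the opposite strand shares 9.45% of the exon bases of MDM2, and a pseudogene on the same strand 5.29%. The counts of MDM2 are therefore also uncertain in every comparison. PPM1D, the phosphatase WIP1 that reverses damage signalling to p53, rose by 0.59 ± 0.07, and FBXO22, a ubiquitin ligase subunit, by 0.27 ± 0.06, although NRG4 on the opposite strand shares 16.2% of its exon bases, so that its counts are uncertain in every comparison. CCNG1, cyclin G1, which recruits a phosphatase to MDM2, fell by 0.36 ± 0.07. FBXW7, the ubiquitin ligase subunit that recognises cyclin E and MYC, had a log2 fold change of 0.13 ± 0.09 that was not called (adjusted p = 0.189).

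All 6 genes of DNA repair and nucleotide supply were higher. RRM2B, a subunit of ribonucleotide reductase that supplies nucleotides outside S phase, had 60.1, 54.7 and 47.0 CPM in proliferating cells and 120, 124 and 127 CPM in senescent cells. Every senescent library lay far above every proliferating one, and the gene rose by 1.19 ± 0.06 (adjusted p = 1.39e-14). POLH, the polymerase that copies past ultraviolet damage, rose by 0.69 ± 0.06. XPC and DDB2, which recognise lesions for nucleotide excision repair, rose by 0.46 ± 0.06 and 0.25 ± 0.07. GADD45A, a stress sensor that binds PCNA, rose by 0.33 ± 0.05. The helicase gene ASCC3 had the smallest rise of the 6, 0.14 ± 0.05 (adjusted p = 0.0194), and this call was lost without proliferating replicate 3 (adjusted p = 0.131) or senescent siCtrl replicate 2 (adjusted p = 0.231). The exons of XPC share 24.6% of their bases with XPC-AS1 on the opposite strand, and whether the counting used the strand is not given in the sources used here.

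The 6 genes of redox control and metabolism were also all called higher. ACER2, an alkaline ceramidase that yields sphingosine in the Golgi, had 1.33, 1.15 and 1.35 CPM in proliferating cells and 3.58, 4.63 and 4.81 CPM in senescent cells. The groups were well apart at this low level, which rested on 50 to 81 counts per proliferating library and 201 to 278 counts per senescent library. ACER2 rose by 1.78 ± 0.16 (adjusted p = 1.05e-09), a 3.43-fold increase and the largest among the 32 genes. FDXR, the ferredoxin reductase that passes electrons to mitochondrial P450 enzymes, rose by 0.60 ± 0.06. The oxidoreductase gene TP53I3 rose by 0.30 ± 0.05, and TIGAR, a fructose bisphosphatase that lowers glycolytic flux, by 0.26 ± 0.06. The sestrins SESN1 and SESN2, stress proteins that restrain mTORC1, moved less. SESN1 had 22.5, 21.9 and 16.8 CPM in proliferating cells and 24.4, 25.4 and 22.4 CPM in senescent cells, with groups that overlapped. SESN2 had 49.5, 47.0 and 54.1 CPM against 59.0, 59.1 and 57.1 CPM, with groups that did not overlap. The log2 fold changes were 0.23 ± 0.08 for SESN1 (adjusted p = 0.0184) and 0.22 ± 0.05 for SESN2 (adjusted p = 8.11e-04). The call of SESN1 was lost without proliferating replicate 3 (adjusted p = 0.164) and without senescent siCtrl replicate 1 (adjusted p = 0.0543) or replicate 2 (adjusted p = 0.106).

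Genes of autophagy and mitochondrial quality control rose in 3 of 4 cases. SPATA18, also known as Mieap, which acts in the clearance of damaged mitochondria, had 16.99, 16.67 and 15.34 CPM in proliferating cells and 33.1, 34.5 and 33.5 CPM in senescent cells. Every senescent library lay above every proliferating one, with a log2 fold change of 1.04 ± 0.06 (adjusted p = 1.45e-13). TP53INP1, a nuclear protein of stress and autophagy, had 30.7, 30.2 and 25.3 CPM against 46.4, 52.4 and 50.6 CPM. Its paralog TP53INP2 had 51.3, 56.0 and 58.3 CPM against 88.9, 87.8 and 90.1 CPM. Both rose, by 0.79 ± 0.07 for TP53INP1 and 0.69 ± 0.05 for TP53INP2, and neither gene had groups that overlapped. DRAM1, a lysosomal membrane protein that promotes autophagy, fell by 0.21 ± 0.04 (adjusted p = 2.5e-04).

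The 8 modulators of growth, survival and death comprised 6 genes that were higher, 1 that was lower and 1 that was not called. BTG2, an antiproliferative protein that recruits the deadenylase complex to mRNAs, had 23.9, 28.3 and 26.0 CPM in proliferating cells and 50.3, 50.8 and 49.2 CPM in senescent cells. It rose by 0.94 ± 0.06 (adjusted p = 9.34e-13). The Polo-like kinases PLK2 and PLK3, which respond to stress, moved in opposite directions. PLK2 had 171, 173 and 170 CPM in proliferating cells and 115, 132 and 123 CPM in senescent cells. PLK3 had 23.8, 23.9 and 23.9 CPM against 48.9, 53.8 and 49.6 CPM. Neither kinase had groups that overlapped, and PLK2 fell by 0.48 ± 0.05 (adjusted p = 2.71e-09) while PLK3 rose by 1.09 ± 0.06 (adjusted p = 2.14e-13). PLK2 and CCNG1, both lower, hold a match to the consensus. PHLDA3, which competes with AKT at the membrane, rose by 0.54 ± 0.06, SERTAD1 by 0.48 ± 0.06, the RNA-binding protein gene ZMAT3 by 0.45 ± 0.07 and the survival gene TRIAP1 by 0.28 ± 0.06. The nuclease gene AEN had a log2 fold change of 0.06 ± 0.05 that was not called. A long noncoding RNA on the same strand shares 18.4% of the exon bases of PHLDA3, so that its counts are uncertain.

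Of the ligand and the receptor in the list, EDA2R, the receptor for ectodysplasin A2 in the TNF receptor superfamily, rose by 0.68 ± 0.07. KITLG, the ligand of the receptor KIT, had a log2 fold change of -0.18 ± 0.09 that was not called (adjusted p = 0.0831) and that turned to 0.10 with an offset for the length and GC content of transcripts.

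**Figure D3:**
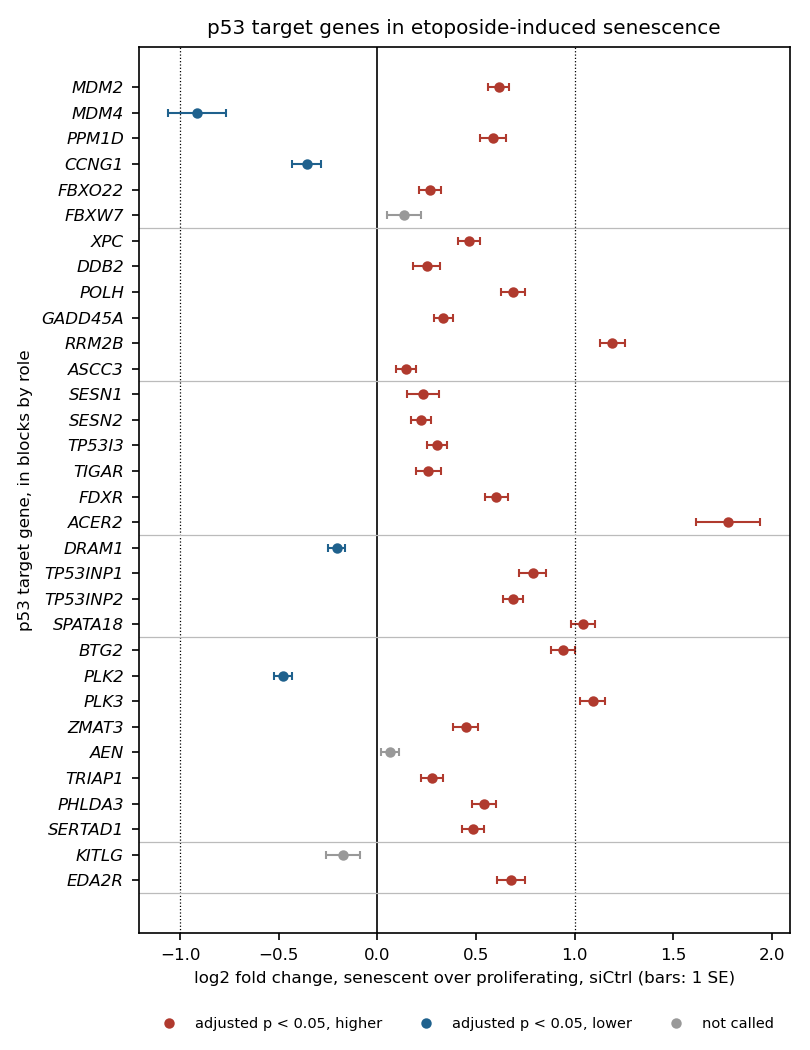
Log2 fold change of each p53 target gene (y axis, in blocks by role) between senescent and proliferating cells with siCtrl (x axis, edgeR; bars are 1 SE; 3 libraries per group), coloured by call at an adjusted p under 0.05, with dotted lines at a log2 fold change of 1 in either direction. ACER2 lies farthest to the right at 1.78 and MDM4 farthest to the left at -0.91, and 25 genes are called higher.

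Levels per length were compared within senescent siCtrl cells, as RPKM, the normalised CPM per kilobase of exon (mean ± SD, n = 3). The p53 target genes spanned from 0.288 ± 0.0436 RPKM for MDM4 to 44.8 ± 1.79 RPKM for PHLDA3. The place of PHLDA3 is uncertain, since it shares 18.4% of its exon bases with a long noncoding RNA on the same strand. CCNG1, at 44.3 ± 1.81 RPKM, did not differ from PHLDA3 beyond the spread, and GADD45A followed at 38.0 ± 0.8 RPKM. MDM2 stood at 22.8 ± 0.568 RPKM, level with RRM2B (22.9 ± 0.701) and DRAM1 (23.1 ± 0.38). ACER2, the gene with the largest fold change, was among the 3 lowest, at 1.57 ± 0.24 RPKM.

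Genes around p53 that are not in the list were followed for context. Of 17 factors that act upstream in the pathway, 3 were higher, 10 lower and 4 not called in senescent cells, and CHEK1, a checkpoint kinase, fell by 1.05. Of 18 tested further p53 targets, 13 were higher and 3 lower, and among them CDKN1A, which encodes the CDK inhibitor p21, rose by 1.62 (adjusted p = 2e-20) and GDF15, a secreted stress factor, by 2.52. All 12 cell cycle genes of a list named for repression by p53 through p21 were lower, with a median log2 fold change of -3.34. Of the 8 fibroblast markers, 6 were lower and 1 higher, and their summed level was 22500 to 24300 CPM in senescent siCtrl cells against 30900 to 32900 CPM in proliferating cells. Markers of other cell types moved as well. The 5 leukocyte markers summed to 107 to 114 CPM against 49.5 to 56.5 CPM, and all 3 that were tested were higher. Most of this sum was CD68, a lysosomal protein, at a mean of 109 CPM against 53 CPM, while PTPRC, the pan-leukocyte marker, had a mean of 0.944 CPM against a count of 0 in every proliferating library. The 5 epithelial markers summed to 46.5 to 57.5 CPM against 17.1 to 19.5 CPM, and 2 of the 3 that were tested were higher. KRT19, a keratin, made up most of that sum, at 50.9 CPM against 17.8 CPM. The 4 endothelial markers with an identifier summed to at most 2.65 CPM in these groups, and 2 of the 3 that were tested were higher and 1 lower. The part of these shifts in the changes of the p53 target genes was not tested.

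Silencing of the receptor was examined next, by comparing siNTRK2 with siCtrl in senescent cells. The study reported that silencing of TrkB or of BDNF lowered the survival of these cells, more so in late senescence. The libraries of both siRNAs may therefore describe the cells that remained. The part of this loss in the changes below was not tested. The p53 target genes were more often lower than higher with siNTRK2, and every change was small. Of 32 genes, 13 were lower, 3 were higher and 16 were not called, against 10% of all tested genes called lower and 11.1% called higher. The median log2 fold change was -0.08, against -0.002 over all genes. No gene of the list had an absolute log2 fold change above 1, so that 0 passed the threshold of the study here and with DESeq2, against 0.957% of all genes. The 16 genes that were not called lay within 0.34 of 0 on the log2 scale. In 18 of the 32 genes the groups did not overlap (32.8% of all genes).

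By role, the lower genes comprised 3 regulators of p53, 1 gene of DNA repair, 4 of redox control and metabolism, 2 of autophagy and 3 of the growth modulators. MDM2 had 156, 158 and 171 CPM with siNTRK2, below every senescent siCtrl library and above every proliferating one, and fell by 0.23 ± 0.05 (adjusted p = 0.00243, edgeR's quasi-likelihood test). PPM1D fell by 0.24 ± 0.06 and FBXO22 by 0.22 ± 0.06, and DDB2 by 0.31 ± 0.07 (adjusted p = 0.00134). FDXR fell by 0.39 ± 0.06, with the smallest adjusted p among the 32 genes (2.27e-05). SESN2 had 49.6, 48.3 and 48.6 CPM with siNTRK2, within the range of the proliferating libraries, and fell by 0.26 ± 0.05 (adjusted p = 8.42e-04). ACER2 had 3.22, 3.61 and 2.89 CPM with siNTRK2, a range that overlapped senescent siCtrl cells at a single library, and fell by 0.43 ± 0.15 (adjusted p = 0.039). TP53I3 fell by 0.19 ± 0.05.

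TP53INP1 had 42.4, 39.9 and 46.0 CPM with siNTRK2 and fell by 0.22 ± 0.07, and TP53INP2 had 74.2, 69.7 and 72.2 CPM and fell by 0.30 ± 0.05 (adjusted p = 7.86e-05). PHLDA3 fell by 0.30 ± 0.06. BTG2 had 42.8, 45.1 and 46.1 CPM and fell by 0.17 ± 0.06 (adjusted p = 0.0428), and PLK3 had 46.3, 37.8 and 43.8 CPM and fell by 0.25 ± 0.06 (adjusted p = 0.00466). All these libraries lay below those of senescent siCtrl cells. The paralogs of SESN2 and PLK3 went the other way. PLK2 had 147, 153 and 150 CPM and rose by 0.29 ± 0.05 (adjusted p = 7.13e-05), while SESN1 had 28.5, 29.1 and 29.1 CPM and rose by 0.26 ± 0.08 (adjusted p = 0.0196). ASCC3 rose by 0.15 ± 0.05.

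Of the 16 calls, 9 held when each of the 6 libraries compared was left out in turn. That of BTG2 was lost without any of the 6 (adjusted p up to 0.148). Losses also occurred for ASCC3 without any library but senescent siCtrl replicate 2, for ACER2 and TP53INP1 without 4 of the 6, for SESN1 without 3 of the 6, for TP53I3 without senescent siCtrl replicate 3 and for PPM1D without siNTRK2 replicate 3. The count of higher genes fell from 3 to 1 without senescent siCtrl replicate 1, without senescent siCtrl replicate 3 and without siNTRK2 replicate 3, and to 1 when an offset for the length and GC content of transcripts was added. The median moved from -0.08 to -0.05 without siNTRK2 replicate 1 and to -0.13 without siNTRK2 replicate 3.

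Genes outside the list moved too. CDKN1A fell by 0.50 (adjusted p = 2.8e-09) and GDF15 by 0.62, and of the 18 further p53 targets 5 were lower and 1 higher. Of the 17 upstream factors 9, among them PRKDC at 0.47 and ATM at 0.38, were higher and 1 was lower. Of the 12 cell cycle genes, 10 were higher with siNTRK2, with a median log2 fold change of 0.71, and their summed level was 70.5 to 74.3 CPM against 45.6 to 46.3 CPM with siCtrl in senescent cells and 405 to 413 CPM in proliferating cells. Of the 8 fibroblast markers, 6 were higher and 1 lower, with a summed level of 26600 to 29500 CPM. CD68, on the list of leukocyte markers, had a mean of 77.5 CPM against 109 CPM with siCtrl, while the defining leukocyte markers PTPRC and CD3E lay at or below a mean of 1 CPM in every group. The part of these shifts in the changes of the p53 target genes was not tested.

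**Figure D4:**
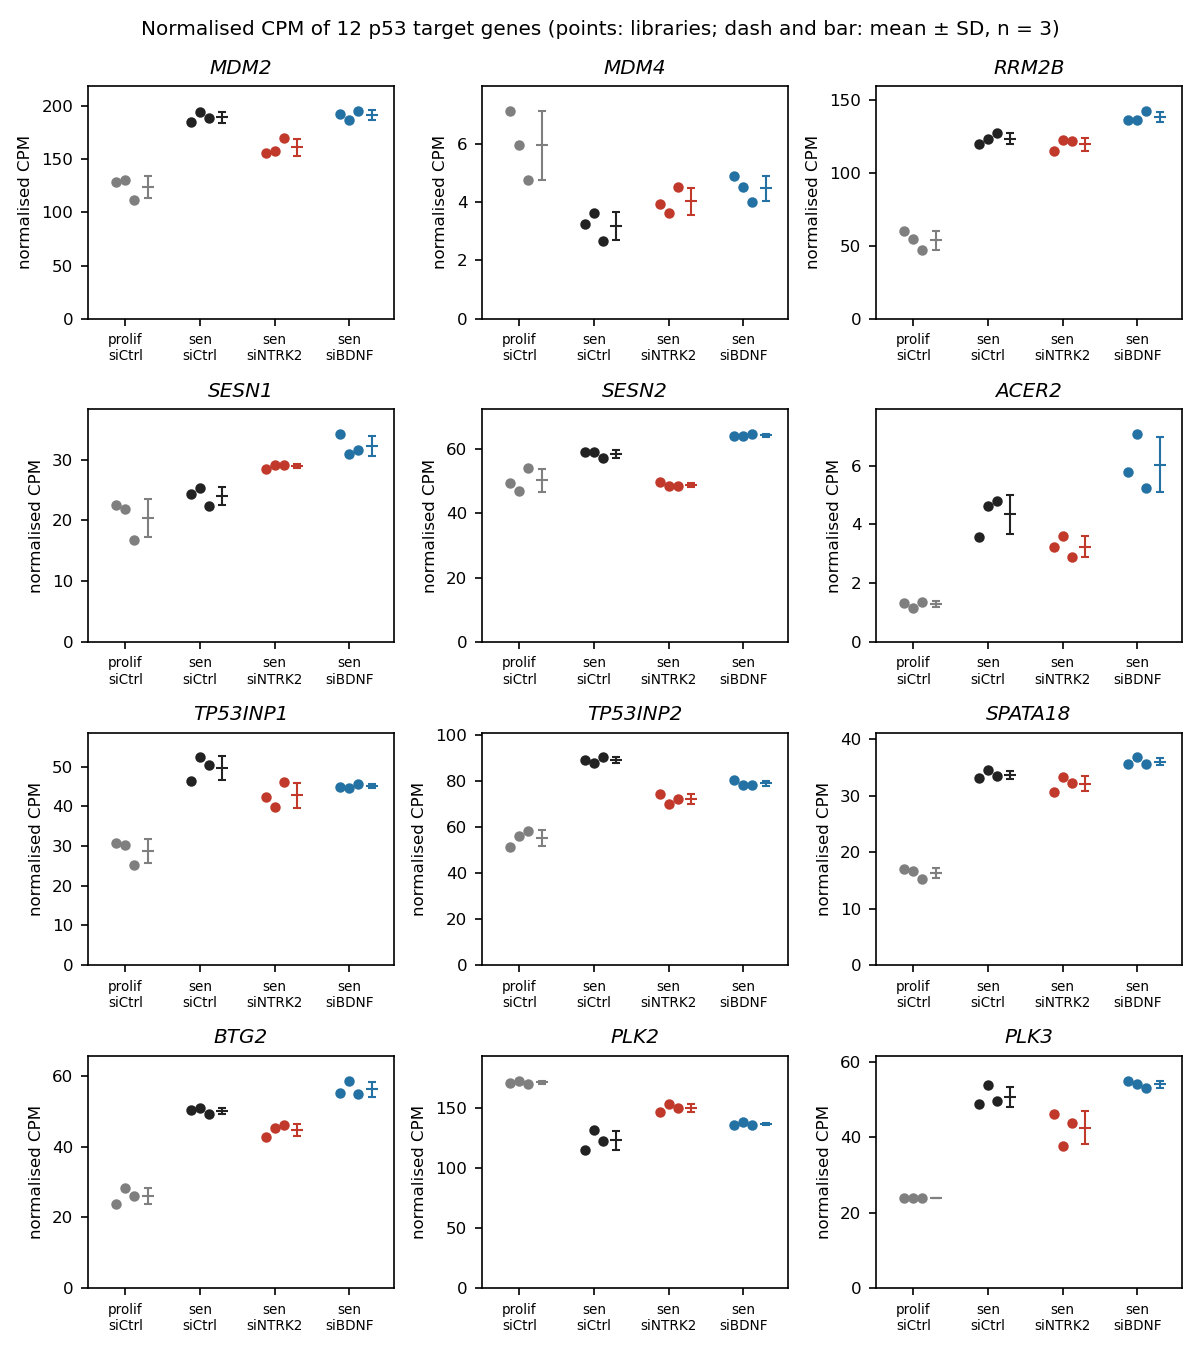
Normalised CPM (y axes, starting at 0) of 12 p53 target genes in each library, by group (x axes); points are libraries, the dash and bar beside them give the mean ± SD of 3 libraries. SESN2 falls with siNTRK2 to the range of the proliferating libraries, PLK2 is lowest and PLK3 clearly raised in senescent siCtrl cells against proliferating cells, and ACER2 is highest with siBDNF.

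Silencing of the ligand was examined in the same way. With siBDNF, 11 of the 32 p53 target genes were higher than with siCtrl in senescent cells, 3 were lower and 18 were not called, against 10.3% of all tested genes called higher and 10.2% called lower. The median log2 fold change was 0.10, against 0.004 over all genes. Again 0 genes passed the threshold of the study, with edgeR and with DESeq2, since no absolute log2 fold change exceeded 1 (0.609% of all genes passed). The 18 genes that were not called lay within 0.15 of 0 on the log2 scale, and 22 of 32 genes had groups that did not overlap, against 37.3% of all genes. This comparison shares its 3 control libraries with that of siNTRK2, so that the values of both are set side by side without a measure of their likeness.

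The higher genes were 2 regulators of p53, 2 genes of DNA repair and nucleotide supply, 2 of redox control and metabolism and 5 growth modulators. MDM4 had 4.884, 4.506 and 4.002 CPM with siBDNF and rose by 0.48 ± 0.15 (adjusted p = 0.023), with all 3 libraries above those of senescent siCtrl cells, and FBXW7 rose by 0.30 ± 0.08. MDM2 had 193, 187 and 196 CPM, overlapping senescent siCtrl cells, with a log2 fold change of 0.02 ± 0.05 that was not called but became -0.14 (adjusted p = 0.0069) with the offset for length and GC content. RRM2B had 137, 137 and 143 CPM and rose by 0.17 ± 0.06 (adjusted p = 0.0467), and ASCC3 rose by 0.16 ± 0.05. ACER2 had 5.77, 7.08 and 5.25 CPM, all above senescent siCtrl cells, and rose by 0.48 ± 0.14 (adjusted p = 0.016). SESN1 had 34.2, 31.0 and 31.6 CPM, all above the other 3 groups, and rose by 0.42 ± 0.08 (adjusted p = 4.48e-04).

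BTG2 had 55.2, 58.6 and 54.8 CPM with siBDNF, again above every senescent siCtrl library, and rose by 0.17 ± 0.06 (adjusted p = 0.0433). PLK2 had 136, 138 and 136 CPM and rose by 0.15 ± 0.05 (adjusted p = 0.0199). ZMAT3 rose by 0.26 ± 0.06 (adjusted p = 0.00531), SERTAD1 by 0.20 ± 0.05 and AEN by 0.14 ± 0.05. The 3 lower genes were TP53INP2, with 80.1, 78.1 and 78.2 CPM and a fall of 0.17 ± 0.05 (adjusted p = 0.0128), GADD45A, which fell by 0.14 ± 0.05, and DRAM1, which fell by 0.13 ± 0.04.

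Most of these calls were not kept in every fit that left out 1 library. Of the 14, those of SESN1 and ZMAT3 held when each of the 6 libraries was left out in turn. Those of RRM2B, GADD45A and DRAM1 were lost whichever of the 6 was left out, although their log2 fold changes kept their direction. These lay between 0.144 and 0.192 for RRM2B, -0.148 and -0.114 for GADD45A, and -0.148 and -0.119 for DRAM1. Each such fit also compares fewer libraries. The count of higher genes became 4 without senescent siCtrl replicate 1, 4 without senescent siCtrl replicate 3, and 6, 3 and 5 without siBDNF replicates 1, 2 and 3. The count of lower genes became 1 or 0 without any of the 6 libraries (1 without senescent siCtrl replicate 1, senescent siCtrl replicate 2 or siBDNF replicate 1, and 0 without each of the other 3), and was 0 with library totals in place of TMM and 6 with the offset for length and GC content. That offset moved the median from 0.10 to 0.04.

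Of the 18 further p53 targets, 7 were higher and 1 lower with siBDNF, and CDKN1A had a log2 fold change of -0.04 (adjusted p = 0.55). Of the 17 upstream factors, 8 were higher and 9 not called, among the former ATM at 0.56 and EP300 at 0.50. Of the 12 cell cycle genes, 1 was lower and 11 were not called, and of the 8 fibroblast markers 2 were higher and 4 lower. CD68 had a mean of 180 CPM. The part of these shifts was not tested.

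The siRNAs were then compared with each other, since a call with one and not with the other does not show a difference. With siNTRK2, 15 of the 32 p53 target genes were lower than with siBDNF, 1 was higher and 16 were not called, against 7.86% of all tested genes called lower and 8.84% called higher. The median log2 fold change was -0.16, against -0.004 over all genes, and 0 genes passed the threshold of the study (1.16% of all genes did) with edgeR and with DESeq2. In 22 of 32 genes the groups did not overlap (34.2% of all genes).

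ACER2 showed the largest difference, of -0.90 ± 0.14 (adjusted p = 6e-05), so that its level with siNTRK2 was 0.535 times that with siBDNF. It was called lower with siNTRK2 and higher with siBDNF against siCtrl, as was BTG2, for which the direct difference was -0.33 ± 0.06 (adjusted p = 1.9e-04). The opposite calls against siCtrl depended on single libraries. With each library left out in turn, BTG2 lost its call in 6 of 6 fits with siNTRK2 and 5 of 6 with siBDNF. ACER2 lost its call in 4 of 6 and 2 of 6 fits. The direct differences of both genes held in all 6 fits. SESN2 had 64.0, 64.1 and 64.6 CPM with siBDNF, all above the siNTRK2 libraries, and differed by -0.39 ± 0.05 (adjusted p = 4.93e-06). PLK3 had 55.0, 54.2 and 53.1 CPM with siBDNF and differed by -0.34 ± 0.06 (adjusted p = 2.86e-04).

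Among the regulators of p53, PPM1D differed by -0.31 ± 0.06, CCNG1 by -0.29 ± 0.07 and MDM2 by -0.25 ± 0.05. In the repair and metabolic groups the differences were -0.30 ± 0.06 for FDXR, -0.28 ± 0.07 for DDB2, -0.21 ± 0.06 for RRM2B and -0.15 ± 0.05 for TP53I3. SPATA18 had 30.7, 33.3 and 32.3 CPM with siNTRK2 and 35.6, 36.8 and 35.7 CPM with siBDNF, and differed by -0.17 ± 0.06 (adjusted p = 0.0474). TRIAP1, PHLDA3 and SERTAD1 differed by -0.23 ± 0.06, -0.22 ± 0.06 and -0.22 ± 0.05. DRAM1 was the exception, at 0.18 ± 0.04 (adjusted p = 0.00594). TP53INP1 had 45.0, 44.8 and 45.7 CPM with siBDNF and was not called.

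Of these 16 calls, 9 held without each of the 6 libraries in turn. Those of TP53I3 and SPATA18 were lost without 5 of the 6, those of RRM2B, CCNG1 and PHLDA3 without siBDNF replicate 3 and 1 siNTRK2 library, and those of TRIAP1 and SERTAD1 without siBDNF replicate 3. Without siBDNF replicate 3, the count of lower genes fell from 15 to 8 and ACER2 passed the threshold of the study. Of the 18 further p53 targets, 11 were lower and 1 was higher with siNTRK2 than with siBDNF, among them GDF15 at -0.65 and CDKN1A at -0.46 (adjusted p = 9.4e-09). Of the 12 cell cycle genes, 10 were also higher, with a median log2 fold change of 0.77 over the list, as were 7 of the 8 fibroblast markers. CD68 was lower by a log2 fold change of -1.21. The part of these shifts was not tested.

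**Figure D5:**
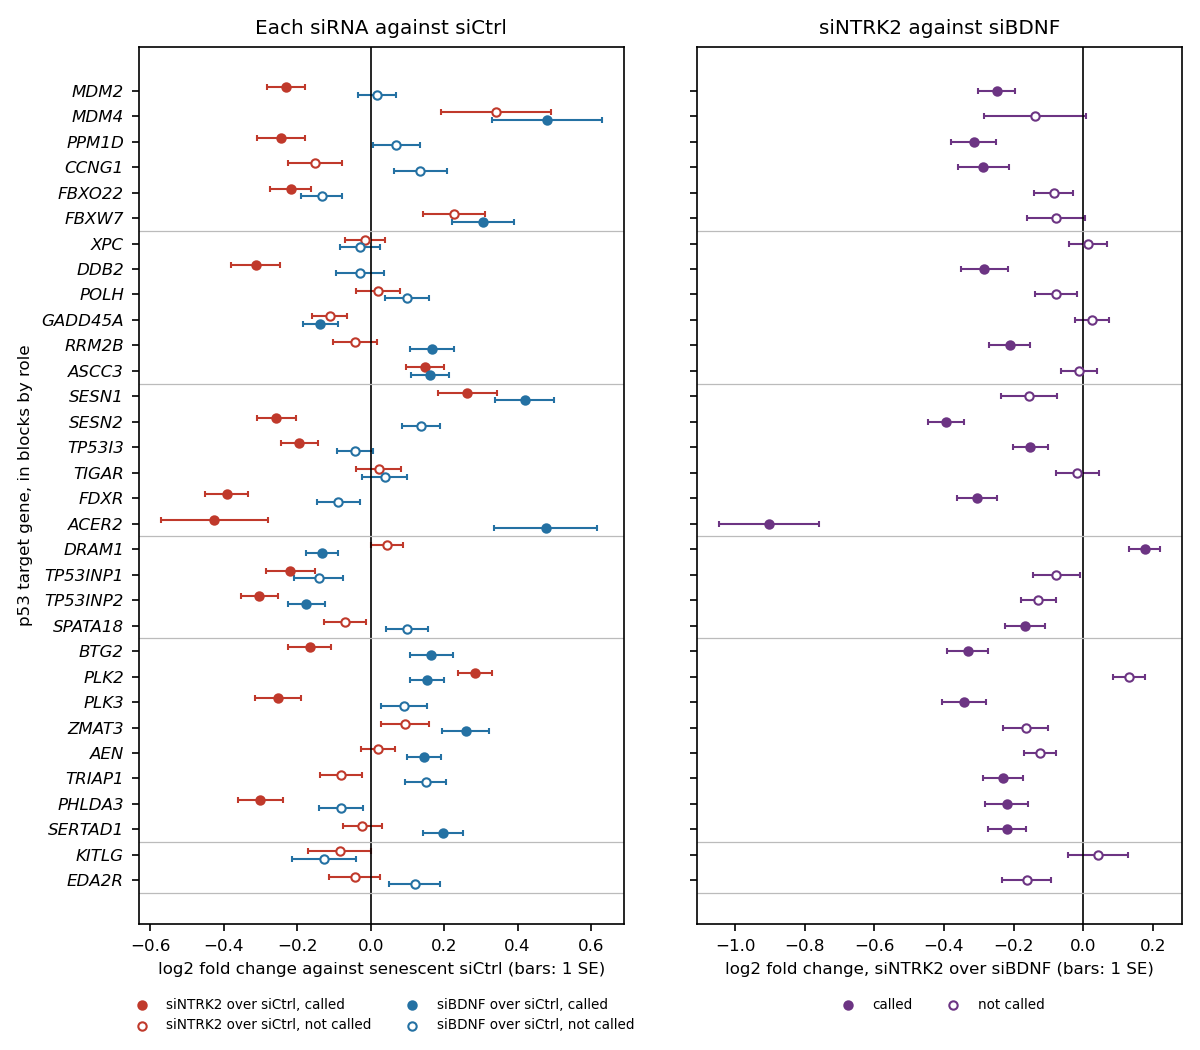
Log2 fold change of each p53 target gene (y axis, in blocks by role) in senescent cells, on the left with siNTRK2 (red) and siBDNF (blue) against siCtrl and on the right with siNTRK2 against siBDNF (edgeR; bars are 1 SE; 3 libraries per group; filled points are called at an adjusted p under 0.05). The red points lie mostly left of the blue ones, widest apart for ACER2 at -0.43 and 0.48, and on the right 15 genes are called lower and DRAM1 alone is called higher.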

How the data were processed

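Bulk RNA-seq of 12 libraries was analysed, grouped by the sample labels. The deposited values are counts, whole numbers of reads per Ensembl gene: the authors demultiplexed reads with bcl2fastq 2.20.0.422, trimmed them with Cutadapt, aligned them to hg19 with STAR 2.4.0j and counted them with featureCounts 1.6.4, without normalisation. The library kit keeps strand, and whether counting used it is not given in the sources used here, so counts of overlapping genes are uncertain.

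The files hold 57773 identifiers, of which 55538 were paired with a symbol. Differential expression was assessed with edgeR 4.0.16 in R 4.3.3. After TMM scaling, 21518 genes passed filterByExpr, and all 12 libraries entered a single quasi-likelihood fit on the 4 groups, so that the spread was shared. The Benjamini-Hochberg adjustment ran over all tested genes in each of 4 comparisons, and a gene was called at an adjusted p under 0.05. The study used DESeq2 with a further absolute log2 fold change above 1; DESeq2 (1.42.0) was run as an alternative. Standard errors are the absolute log2 fold change over the square root of the F statistic. RPKM used exon lengths from GENCODE v44 on GRCh37 coordinates, not the Ensembl annotation that the study used. Levels per length are therefore approximate. Intervals from depth were not needed beyond the floor of 3 counts, which covers counting error only, since reads carry no molecular identifiers.

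Every p53 target gene may be named for senescence, and those past the adjusted p in the other comparisons. Values per library are given for genes past the study's threshold, genes called in opposite directions with the siRNAs, and paralog pairs. The members and the lists were chosen with earlier results of these data known. The alternatives were DESeq2, its size factors, library totals, no count filter, a minimum of 10 counts per library, a fit on the compared groups alone, a replicate block and leaving out each library; an offset per library for the length and GC content of transcripts (spline, 4 degrees of freedom) was chosen after seeing the data. The models were tested on simulated data for senescent against proliferating cells only, with true absolute log2 fold changes of 0.5, 1 and 2. At these sizes edgeR recovered 41 of 67, 50 of 67 and 55 of 62 changed genes. Smaller changes and the comparisons of siRNAs were not simulated. The consensus scan used Python 3 and NumPy. Some genes of the context lists are not reported here.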

Additional observations from a re-analysis of the deposited data

Results flagged for a closer look

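The effects of the siRNAs on 16 p53 target genes differed from each other, by the edgeR quasi-likelihood test of siNTRK2 against siBDNF in senescent cells, that is, by a test of the difference itself (log2 fold change, siNTRK2 minus siBDNF; adjusted p under 0.05). The difference was -0.90 for ACER2, -0.39 for SESN2, -0.34 for PLK3, -0.33 for BTG2, -0.31 for PPM1D and -0.30 for FDXR. It was -0.29 for CCNG1, -0.28 for DDB2, -0.25 for MDM2, -0.23 for TRIAP1, -0.22 for PHLDA3, -0.22 for SERTAD1 and -0.21 for RRM2B. The smallest differences were -0.17 for SPATA18 and -0.15 for TP53I3, and DRAM1 was the only one of the 16 with a positive difference, 0.18. CCNG1, TRIAP1 and SPATA18 were called in neither comparison with siCtrl: their log2 fold changes were -0.15, -0.08 and -0.07 with siNTRK2 and 0.14, 0.15 and 0.10 with siBDNF.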

How the results depend on the processing

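For senescence, the p53 target genes had a median log2 fold change (0.39) that became 0.41 with DESeq2 and with its size factors, 0.43 with library totals, 0.37 without a count filter, 0.42 with at least 10 counts in every library, 0.47 with the length and GC offset, and 0.34 to 0.39 without each library in turn; 23 to 25 genes were then called higher and 4 to 5 lower. With siNTRK2, 3 higher genes became 1 with the offset and 1 to 4 without each library, 13 lower genes became 9 to 12 without each library, and the median (-0.08) became -0.12 with the offset and -0.125 to -0.0539 without each library. With siBDNF, 11 higher genes became 3 to 10 without each library; 3 lower genes became 0 with library totals, 1 without a count filter, 5 with only the compared groups, 6 with the offset and 0 to 1 without each library; and the median (0.10) became 0.16 with library totals, 0.0389 with the offset and 0.0768 to 0.13 without each library. Between the siRNAs, 1 higher gene became 2 with DESeq2, with only the compared groups and with the replicate block; 15 lower genes became 8 to 14 without each library; 0 to 1 passed the study's threshold without each library; and the median (-0.16) became -0.20 with library totals and -0.19 to -0.13 without each library. The log2 fold change of KITLG in senescence (-0.18) was 0.10 with the offset, and that of MDM2 with siBDNF (0.02) was -0.14; the cause was not tested. Over the alternatives to 88 named values (1 gene in 1 comparison each), 1093 results kept their direction and call, 119 lost the call, 18 gained it and 2 changed sign. Samples with the same replicate number did not deviate together (mean r 0.002 over 18 pairs, from -0.04 to 0.03). This does not show whether such samples were prepared together. With the replicate block, 25 genes were higher and 4 lower in senescence, and 4 and 13 with siNTRK2. The counts were 10 and 3 with siBDNF, and 2 and 15 between the siRNAs. Other scalings moved the median of all genes by at most 0.06. Depth limits MDM4 and ACER2, with 50 to 479 counts per library.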
